A study of Homo sapiens with 9 samples.

Results

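P22 is a clone of the K562 line edited by CRISPR to carry the P95H substitution in the splicing factor SRSF2, and it was measured in 1 RNA-seq library of the 9 in the series. It was chosen by its measured expression, which lay far from that of the other P95H clones. The reference clones are P9, P15 and P38, which share its SRSF2 P95H genotype, and W19, W36 and W42, edited clones of the same line with wild-type SRSF2 (called the WT clones here). The unedited parental line, also with wild-type SRSF2, and a further clone with wild-type SRSF2, W33, are shown beside them. K562 comes from a patient with chronic myeloid leukaemia and is described in the labels as an erythroleukaemia line, so every library carries the genome of that 1 tumour line. Each clone is 1 culture and 1 library, no drug, differentiation agent or time course is named, and the labels do not say how many editing events gave the clones. Spread between clones therefore mixes clonal and technical variation. The study's stated aim concerned splicing events in wild-type and mutant clones, whereas the values used here are read counts per gene and do not show which SRSF2 allele was read.

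K562 cells sit near the branch point of the red cell, platelet and mast cell lineages. GATA1 and KLF1 drive red cell genes such as globins, heme enzymes and the membrane skeleton, while SPI1, which encodes PU.1, drives granulocyte and monocyte genes and can bind and oppose GATA1. KIT is the stem cell factor receptor of blood progenitors and mast cells, and it is normally lost as red cells mature.

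Reads assigned to genes ranged from 24546255 (W33) to 35477328 (parental), with 32593383 in P22. Levels are given as CPM, read counts scaled to library depth with TMM factors, and a count of 3 equalled 0.0846 to 0.122 CPM across libraries and 0.092 CPM in P22. The shares of reads in genes (43.3 to 44.2%) and from mitochondrial genes (4.75 to 6.37%, 5.31% in P22) did not set P22 apart. W33 stood apart from the WT clones, with 2246 genes past the threshold against W19, W36 and W42 in the same kind of fit, and was kept out of the tests. K562 marks were present in P22: CDKN2A, CDKN2B and MTAP, lost from the K562 genome, had 0 counts, and the tumour antigen gene PRAME stood at 2027 CPM, within the 1755 to 2519 CPM of the other libraries.

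SRSF2 itself was at 526 CPM in P22. The other P95H clones had 443 (P9), 460 (P15) and 583 CPM (P38), the WT clones 501 (W19), 511 (W36) and 502 CPM (W42), the parental line 514 CPM and W33 429 CPM. P22 thus lay inside the range of its own genotype. Its log2 difference from the WT clones was 0.05 (SE 0.16, edgeR adjusted p = 0.921). SRSF2 shares exon sequence with MFSD11 on the other strand, and the reads of overlapping genes cannot be told apart in these counts.

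Across the 20458 genes tested, P22 differed from P9, P15 and P38 at adjusted p under 0.05 in 254 genes (percent called 1.24), 174 of them higher (0.851%) and 80 lower (0.391%). Because the distance from these clones is what chose P22, these counts and the differences below describe the clone and test nothing. A difference of at least 2-fold was seen in 236 of the 254, and at least 4-fold in 118 of the higher and 46 of the lower genes. P22 lay outside the range of all 8 other libraries for 172 of the 174 and 76 of the 80. Over all genes tested the median log2 difference was -0.01, and P22 lay above all 8 others for 14.2% of genes and below them for 10.9%. Of the higher genes, 74 had a mean under 1 CPM in P9, P15 and P38, and 39 had a mean of at least 10 CPM there.

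**Figure D1:**
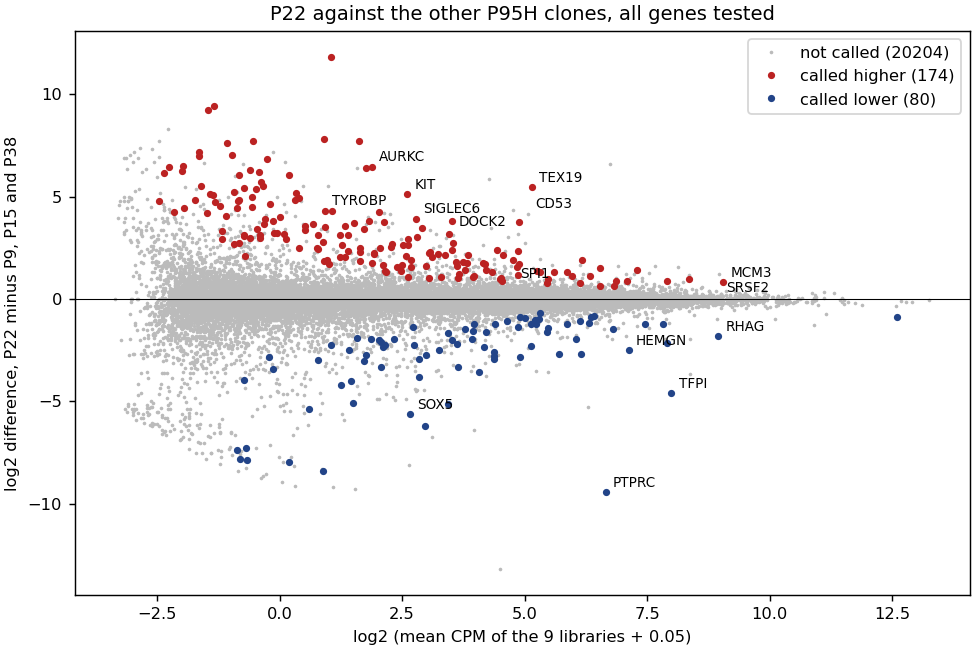
Each point is a gene: the horizontal axis is its log2 mean CPM over the 9 libraries (with 0.05 added), and the vertical axis its log2 difference between P22 and P9, P15 and P38. Red points are the 174 genes called higher, blue the 80 called lower and grey those not called. PTPRC and RHAG lie among the blue points, and CD53 and DOCK2 stand high without being called.

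The comparison with the WT clones uses a reference that was not used in choosing P22. The P22 library itself is the one chosen for its distance, and most genes named below were picked for their level in it, so calls against the WT clones are not independent of that choice. Here 375 genes passed (1.83%), 267 higher in P22 (1.31%) and 108 lower (0.528%). P9, P15 and P38 against the same WT clones gave 5 genes (0.0244%), all higher. An unadjusted p under 0.05 was seen for 3133 genes in P22 against the WT clones and for 2620 in the other P95H clones against them. With a single P22 library the spread comes from the replicate clones, with 4 residual degrees of freedom, and P22 is assumed to vary like them. When 1 clone was left out in turn, P22 against the WT clones gave 117 (without W36) to 906 genes (without P15), also 130 without W42 and 193 without W19. With W33 counted as a WT clone it gave 164. Of 49 genes named below that passed against the WT clones, 21 passed in all 6 such fits. In bulk RNA, a change in the share of cells of a given state and a change in RNA per cell cannot be told apart.

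KIT was at 36.4 CPM in P22 and at 1.15 (P9), 0.436 (P15) and 1.54 CPM (P38) in the other P95H clones. The WT clones had 4.53 (W19), 1.39 (W36) and 1.69 CPM (W42), the parental line 2.97 and W33 4.13 CPM. P22 was the highest of the 9 libraries, with no overlap with either group. The log2 difference was 5.13 (SE 0.71) from the other P95H clones and 3.84 (SE 0.68) from the WT clones, where it missed the threshold (edgeR adjusted p = 0.0515). The adjusted p for KIT ran from 1.54e-06 to 0.177 over the alternatives, and KIT passed when W19 or P15 was left out.

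CD53, a tetraspanin of white cells, was at 156 CPM in P22, against 9.41, 4.33 and 12.2 CPM in P9, P15 and P38 and 6.54, 22 and 13.4 CPM in W19, W36 and W42. The parental line stood between, at 68.2 CPM. DOCK2, which activates RAC in migrating white cells, showed the same order: 127 CPM in P22, 58.8 in the parental line, 1.78 to 9.48 in the other P95H clones and 6.95 to 7.67 in the WT clones. Neither passed against the WT clones: the log2 difference was 3.47 (SE 0.67, edgeR adjusted p = 0.0779) for CD53 and 4.10 (SE 0.66, edgeR adjusted p = 0.0508) for DOCK2. DOCK2 passed when P15 or P38 was left out.

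SPI1 was at 57.5 CPM in P22 and at 13.9 (P9), 14.9 (P15) and 17.4 CPM (P38), a log2 difference of 1.90 (SE 0.30). W19, W36 and W42 had 21.0, 36.3 and 19.9 CPM, the parental line 31.7 and W33 30.8 CPM. P22 was above every other library, and the difference from the WT clones, 1.15 (SE 0.31), did not pass (edgeR adjusted p = 0.127). It passed without W36, the highest of them, and with DESeq2. The adjusted p for SPI1 ran from 0.0136 to 0.267 over the alternatives.

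HEMGN, which encodes hemogen, a nuclear protein of early blood and red cell precursors and a GATA1 target, was at 41.5 CPM in P22. The other P95H clones had 253 (P9), 265 (P15) and 185 CPM (P38), the WT clones 112, 105 and 129 CPM, the parental line 71.9 and W33 93.5 CPM. P22 was the lowest of the 9, and the P95H clones other than P22 were the highest. The log2 difference was -2.50 (SE 0.25) from the other P95H clones and -1.48 (SE 0.23) from the WT clones (edgeR adjusted p = 0.0228). That call was lost without W19, W36 or W42 (adjusted p of 0.0581 to 0.0727, in a range over all alternatives of 3.28e-08 to 0.0727).

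PTPRC encodes CD45, the surface phosphatase carried by nearly all white cells. P22 had 6 counts, or 0.182 CPM, whereas the other P95H clones had 124 (P9), 114 (P15) and 151 CPM (P38) and the WT clones 125, 195 and 106 CPM. The parental line had 68.6 and W33 22.1 CPM. The gene was close to silent in P22 alone, opposite to CD53 and DOCK2. The log2 difference from the WT clones was -9.58 (SE 0.65, edgeR adjusted p = 0.00149), and it passed in all 6 fits without 1 clone. In limma-voom with quality weights it did not (adjusted p = 0.0694, the highest of the alternatives, which reached down to 2.7e-44). The 50 expressed genes from CDC73 to RAB29, the stretch of chromosome 1 that holds PTPRC, had a median log2 difference of 0.01 from the median of the libraries other than P22 and W33. A median over 50 genes does not show the genes next to PTPRC, and a local cause was not tested.

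**Figure D2:**
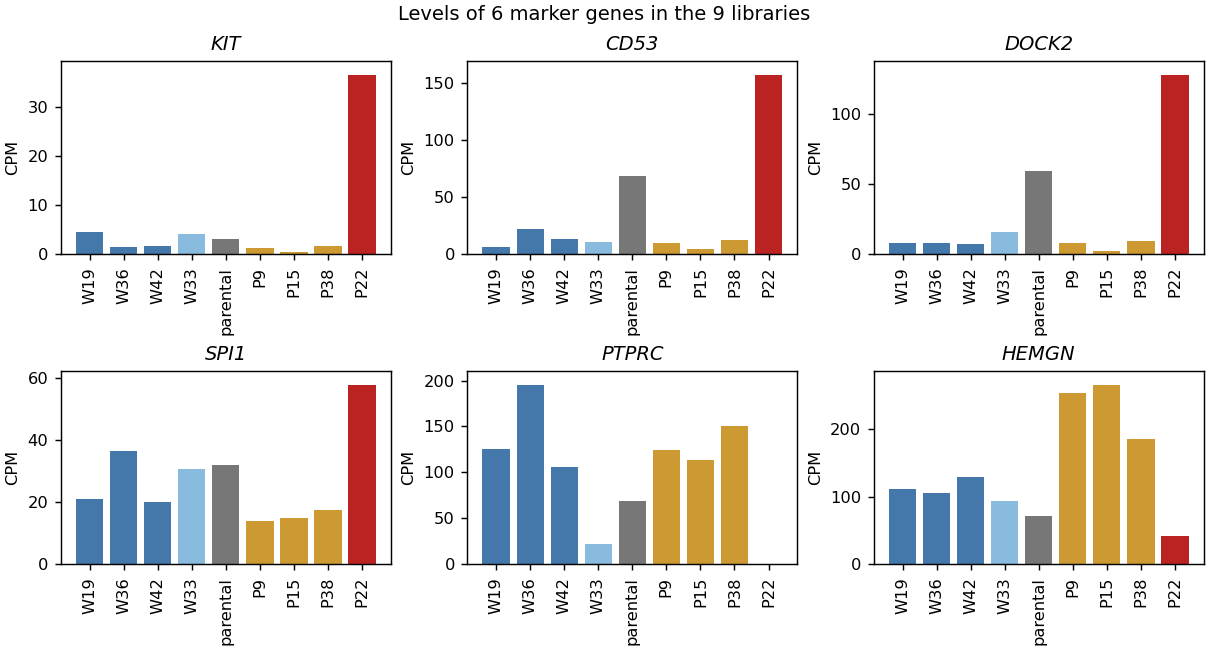
Bars give CPM in each of the 9 libraries for the 6 marker genes, with WT clones in blue (W33 in light blue), the parental line in grey, the other P95H clones in ochre and P22 in red; each bar is 1 library. P22 is highest for KIT, CD53, DOCK2 and SPI1 and lowest for PTPRC (0.182 CPM, not visible) and HEMGN.

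The red cell programme was next described by list. The lists held globins, heme enzymes, iron handling, the membrane skeleton, blood group proteins, red cell enzymes and erythroid factors. P22 had lower levels than P9, P15 and P38 in most of them, but, except for blood group proteins, list medians near those of the WT clones. The median log2 difference from the other P95H clones was -1.85 for the 11 of 12 globin genes that passed the filter on low counts, -0.45 for the 17 heme genes, -0.10 for 16 of 17 iron genes, -0.62 for the 17 membrane genes, -0.90 for 18 of 22 blood group genes, -0.54 for 21 of 22 enzymes and -0.05 for 23 of 24 factors. All genes tested had a median of -0.01. The medians from the WT clones were -0.28, -0.18, 0.06, -0.03, -0.61, -0.05 and 0.06 in that order. In these lists 8 genes were called lower against the other P95H clones (0.391% of all genes were) and none higher (0.851%). Against the WT clones 4 were lower (0.528% of all genes were), among them RHAG, SPECC1 and HEMGN. CA1 was the 1 called higher (1.31% of all genes were). P22 was below all 8 other libraries for 11 of the 18 blood group genes, with none called, and for 5 of the 11 globins. It was below them for 10.9% of all genes tested. The description of the clone as having lost its erythroid programme therefore held for single genes, and relative to clones of its own genotype, but the medians of 6 of the 7 lists lay within 0.28 of the WT clones, the blood group list being the exception.

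The globins show where that difference lay. In P9, P15 and P38 all 11 tested globins were above the WT clones, with a median log2 difference of 1.54 (0.01 for all genes tested). Of them 2 were called higher (0.0244% of all genes were). HBG2, a fetal gamma globin, was at 1119 CPM in P22, close to W19 (1133) and W36 (1186) and below W42 (1725). P9, P15 and P38 had 2618, 3031 and 2521 CPM, the parental line 1619 and W33 2158 CPM. The P95H clones other than P22 were therefore above every WT clone, and P22 was not. HBG1 and HBG2 are near-identical copies, and the counter's handling of shared reads makes each level less certain. HBE1, the embryonic epsilon chain, was at 63.2 CPM in P22, within the 59.5 to 124 CPM of the WT clones, while P9, P15 and P38 had 1393, 843 and 196 CPM. HBD, the delta chain, was at 3.09 CPM in P22, below the WT clones (4.75 to 5.44 CPM) and the other P95H clones (16.3 to 18.0 CPM). Its log2 difference from the WT clones was -0.75 (SE 0.20, edgeR adjusted p = 0.123). HBA1 and HBA2, the near-identical alpha globin genes, were at 15.2 and 16.4 CPM, the lowest of the 9 libraries. No globin passed against the WT clones. Genes around the beta globin cluster on chromosome 11 had lower levels too: the 50 expressed genes from KCNQ1OT1 to ZNF143 had a median log2 difference of -0.35 from P9, P15 and P38 and of -0.06 from the WT clones, and their part in the globin difference was not tested.

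The erythroid factors went in both directions. Of the 23 tested, P22 was below all 8 other libraries for 8 and above them for 4, and HEMGN was the one called. Over all genes tested the shares were 10.9% below and 14.2% above, so the count above lies near its share. GATA1 was at 272 CPM in P22, against 235, 235 and 217 CPM in W19, W36 and W42 and 216, 257 and 216 CPM in P9, P15 and P38. KLF1 was at 115 CPM, above the 76.4 to 91.5 CPM of the WT clones and just below the 118 to 137 CPM of the other P95H clones. GATA2, the progenitor and mast cell relative of GATA1, was at 110 CPM, the highest of the 9, with 82.8 to 91.4 CPM in the WT clones. NFE2, which drives globin and platelet genes, was at 134 CPM against 146 to 275 CPM, and TAL1, a partner of GATA1, at 79.7 CPM against 84.6 to 172 CPM. SOX6, which silences embryonic globin, was at 2.06 CPM against 4.13 to 10.4 CPM, and KLF13, a KLF1 relative, at 6.43 CPM against 12.8 to 118 CPM. None of these 7 genes passed in either comparison.

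The membrane list held 3 of the 8 red cell genes called lower against the other P95H clones. RHAG, the Rh-associated glycoprotein, was at 155 CPM in P22, against 492, 557 and 599 CPM in P9, P15 and P38 and 589, 585 and 652 CPM in the WT clones. Both groups lay well above P22, and the parental line (496 CPM) and W33 (322 CPM) did too. The log2 difference from the WT clones was -1.98 (SE 0.16, edgeR adjusted p = 0.00156). It passed without any single clone and was lost with W33 counted as a WT clone (adjusted p = 0.0635, in a range over all alternatives of 7.57e-31 to 0.0635). ADD2, beta adducin, shows the other pattern: 65.0 CPM in P22, 108 to 125 CPM in the other P95H clones and 49.6 to 61.1 CPM in the WT clones, so that P22 was the lower of the first comparison and the higher of the second. SPECC1, listed with the enzymes and late genes and encoding cytospin B, was at 0.394 CPM in P22 and at 8.27 to 16.0 CPM in the 8 others (log2 -4.71 from the WT clones, SE 0.39, edgeR adjusted p = 0.00156). CA1, a red cell carbonic anhydrase, was at 1.30 CPM in P22, at 0 to 0.129 CPM in the WT clones and at 2.56 to 3.58 CPM in the other P95H clones, and its call against the WT clones was lost without W42 (adjusted p = 0.0882, in a range over all alternatives of 0.000138 to 0.533).

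**Figure D3:**
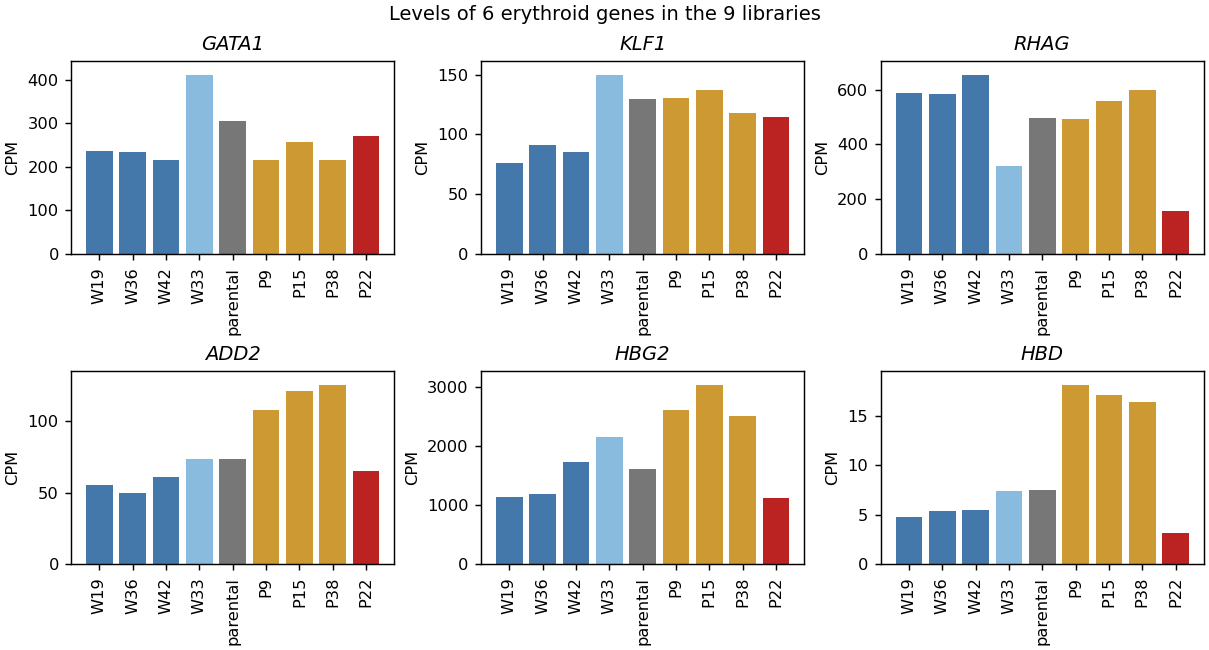
CPM of 6 red cell genes in each of the 9 libraries, 1 bar per library, coloured as WT clones (blue, W33 light blue), parental (grey), other P95H clones (ochre) and P22 (red). RHAG is lowest in P22, ADD2 in P22 lies between W19, W36 and W42 and the other P95H clones, HBG2 and HBD are high in P9, P15 and P38, and GATA1 and KLF1 in P22 lie within the range of the other libraries.

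Few progenitor genes other than KIT were called. Of 36 on the list, 22 passed the filter, 11 had no library above a count of 3, and the median log2 difference was 0.13 from the other P95H clones and 0.15 from the WT clones. KIT and LYL1 were called higher against P9, P15 and P38 (0.851% of all genes were), and no progenitor gene passed against the WT clones. LYL1, a transcription factor of stem cells, was at 143 CPM in P22, 89.4 to 96.0 CPM in the other P95H clones and 94.3 to 101 CPM in the WT clones, but W33 (176 CPM) was higher still. CD34, the defining surface marker of blood progenitors, had 3 counts in P22 and 0 to 4 in the others, and FLT3 and PROM1 had 0 counts in P22. RUNX1 was at 99.3 CPM in P22 against 60.3 to 87.2 CPM elsewhere, and MYB, at 231 CPM, lay inside the range of the 8 others. The gene for the KIT ligand, KITLG, had 0 counts in all 9 libraries. In the list of this ligand and the KIT pathway, KIT and INPP5D were called higher against the other P95H clones (0.851% of all genes were). Against the WT clones 1 was called higher (1.31% of all genes were). Of 16 genes of the KIT pathway tested, INPP5D, the lipid phosphatase SHIP1, passed against the WT clones (29.1 CPM against 4.20, 9.88 and 6.80 CPM, with 18.3 CPM in the parental line, log2 2.06, SE 0.37, edgeR adjusted p = 0.0394). The INPP5D call was lost without W42, P9, P15 or P38 (adjusted p of 0.0512 to 0.131, in a range over all alternatives of 5.37e-05 to 0.131).

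Mast cell, basophil and eosinophil genes were higher in P22 for a set of surface and granule genes, while the defining proteases were absent. Of 38 genes on the list, 19 passed the filter and 17 had no library above a count of 3. Against the WT clones 4 were called higher (1.31% of all genes were) and none lower. Against the other P95H clones 3 were called higher (KIT, HDC and SIGLEC6, with 0.851% of all genes higher). The median log2 difference of the 19 was 1.61 from the WT clones and 1.37 from the other P95H clones. A gene that passes the filter only through P22 has to differ, so these medians describe the tested genes and not the list. With no filter the medians were 0.73 and 0.93.

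SIGLEC6, a sialic acid binding receptor of mast cells and placenta, had the clearest difference, at 44.7 CPM in P22. P9, P15 and P38 had 2.94, 2.65 and 3.15 CPM, W19, W36 and W42 1.64, 1.42 and 1.58 CPM, the parental line 2.42 and W33 1.28 CPM. The 8 others lay close together far below P22. The log2 difference was 3.94 (SE 0.18) from the other P95H clones and 4.84 (SE 0.19, edgeR adjusted p = 9.68e-05) from the WT clones, and it passed in every alternative run. Its antisense neighbour AC020914.1 was at 17.8 CPM in P22 and at means of 1.34 and 0.605 CPM in the other P95H and the WT clones, and the reads of the pair cannot be told apart.

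The other 3 genes of the list that passed against the WT clones, IL1RL1, ENPP3 and PRG2, had low levels. IL1RL1, the IL-33 receptor ST2, was at 7.27 CPM in P22 and at most 0.956 CPM in the 8 others. ENPP3, the basophil marker CD203c, was at 5.55 CPM in P22 and 2.85 CPM in the parental line, with 0 to 0.436 CPM in the other 7. PRG2, the eosinophil major basic protein, was at 2.73 CPM against 0.461 CPM or less. HDC, which makes histamine, was at 3.12 CPM in P22 and 2.85 CPM in W33, with 0.291 to 0.913 CPM in the rest. HDC was called against the other P95H clones only, and its log2 difference from the WT clones was 2.60 (SE 0.54, edgeR adjusted p = 0.0593). The calls were lost without W19, W36, W42 or P9 for ENPP3, without W19, W36 or W42 for IL1RL1 and without W19 or W42 for PRG2 (adjusted p of 0.0542 to 0.151, 0.106 to 0.123 and 0.0727 to 0.0833, in ranges over all alternatives of 0.000361 to 0.151, 9.39e-05 to 0.123 and 0.000282 to 0.0833). The mast cell proteases TPSAB1, TPSB2 and CPA3 and the alpha chain of the IgE receptor, FCER1A, had 0 counts in P22. MS4A2, the beta chain of that receptor, was at 0.394 CPM, within the range of the others. P22 is therefore described by its genes here and given no cell type name.

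Granulocyte and monocyte genes gave the longest series of higher genes. Of 54 on the list, 34 passed the filter and 13 had no library above a count of 3. Against the WT clones 10 were called higher (1.31% of all genes were) and none lower (0.528%). Against the other P95H clones 8 were called higher (0.851% of all genes were) and none lower (0.391%). A gene that passes the filter only through P22 has to differ, so these counts describe the tested genes and not the list. NCF4 and FPR1, with at most 0.202 and 0.235 CPM outside P22, are such genes among the 10. The median log2 difference of the tested genes was 1.23 from the WT clones and 1.12 from the other P95H clones, and 0.36 and 0.71 when only genes reaching 1 CPM in 4 libraries were kept. TYROBP, the adaptor DAP12 of activating receptors, was at 10.8 CPM in P22, at 0.726, 0.467 and 0.436 CPM in P9, P15 and P38 and at 0.146, 0.355 and 0.0735 CPM in the WT clones. The parental line (2.59 CPM) and W33 (1.02 CPM) lay between. The log2 difference from the WT clones was 5.75 (SE 0.52, edgeR adjusted p = 0.0021), and TYROBP passed in all 6 fits without 1 clone.

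ITGB2, the beta 2 integrin chain CD18, was at 11.4 CPM in P22, 3.02 CPM in the parental line and 0.368 to 0.808 CPM in the other 7. Its partner ITGAM, CD11b, was at 27.7 CPM, but P15 had 25.2 CPM and neither comparison passed. FCGR2B, the inhibitory IgG receptor, was at 9.06 CPM against 0.219 to 0.842 CPM. AIF1, the calcium-binding protein IBA1, was at 18.4 CPM, with 10.4 CPM in the parental line and 1.61 to 6.34 CPM elsewhere. CSF3R, the G-CSF receptor, was at 9.97 CPM against 0.846 to 3.55 CPM, and its log2 difference from the WT clones was 3.06 (SE 0.38, edgeR adjusted p = 0.00989), a call kept without any single clone. CEBPE, the C/EBP factor of late granulocytes, was at 4.12 CPM (at most 1.02 elsewhere), and NCF4 and FPR1, a part of the phagocyte oxidase and the formyl peptide receptor, were at 1.09 and 0.94 CPM. The calls of these 3 were lost without W36 or W42, for NCF4 and FPR1 also without W19 and for FPR1 without P9 (adjusted p of 0.0566 to 0.149, in a range over all alternatives of 0.000513 to 0.198).

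Other defining genes of these cells were at or near 0 or inside the range of the other libraries. MPO had 0 counts and ELANE 1 count in P22. CEBPA and IRF8, factors of granulocyte and monocyte fate, had 0 counts. CD14 was at 0.303 CPM and CD68 at 0.758 CPM, both inside the range of the other libraries. CD33, an early myeloid receptor, was the exception, called higher against the other P95H clones (log2 0.97, SE 0.18): it was at 65.0 CPM in P22, 29.3 to 39.4 CPM in the other P95H clones and 43.3 to 49.8 CPM in the WT clones, and it did not pass against the latter (log2 0.45, SE 0.18, edgeR adjusted p = 0.278).

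Promoters of 4 genes called higher against the other P95H clones and of HEMGN, called lower, are shown because the red cell and myeloid factors named above bind known motifs. They are 5 of 9 windows read and hold examples with and without a match. Each is the 250 bases before the RefSeq start (GRCh38.p14, gene strand, from the 5′ end), in lower case with capitals for GAGGAA or its reverse TTCCTC, the core bound by PU.1. SIGLEC6 is at chr19:51531671-51531920 (minus strand), TYROBP at chr19:35908296-35908545 (minus), CORO1A at chr16:30183352-30183601 (plus), KIT at chr4:54657707-54657956 (plus) and HEMGN at chr9:97944853-97945102 (minus).
SIGLEC6: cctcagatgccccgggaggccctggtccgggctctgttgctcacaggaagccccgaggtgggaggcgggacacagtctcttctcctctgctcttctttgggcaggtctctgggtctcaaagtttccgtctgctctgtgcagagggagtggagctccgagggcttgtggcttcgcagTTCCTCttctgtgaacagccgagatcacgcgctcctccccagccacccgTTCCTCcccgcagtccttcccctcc
TYROBP: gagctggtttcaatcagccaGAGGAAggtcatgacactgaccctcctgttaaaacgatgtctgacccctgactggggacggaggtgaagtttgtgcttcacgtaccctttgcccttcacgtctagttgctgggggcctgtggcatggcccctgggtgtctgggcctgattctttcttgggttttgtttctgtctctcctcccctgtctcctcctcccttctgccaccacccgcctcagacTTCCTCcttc
CORO1A: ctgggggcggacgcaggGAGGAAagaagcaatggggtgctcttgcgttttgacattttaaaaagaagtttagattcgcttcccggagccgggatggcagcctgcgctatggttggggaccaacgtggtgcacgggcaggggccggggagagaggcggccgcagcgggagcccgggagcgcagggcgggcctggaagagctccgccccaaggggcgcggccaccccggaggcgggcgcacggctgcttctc
KIT: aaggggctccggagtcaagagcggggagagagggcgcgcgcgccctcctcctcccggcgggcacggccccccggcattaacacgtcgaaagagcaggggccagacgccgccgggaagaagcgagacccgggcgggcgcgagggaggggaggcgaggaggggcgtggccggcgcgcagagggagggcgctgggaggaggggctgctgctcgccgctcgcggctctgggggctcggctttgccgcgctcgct
HEMGN: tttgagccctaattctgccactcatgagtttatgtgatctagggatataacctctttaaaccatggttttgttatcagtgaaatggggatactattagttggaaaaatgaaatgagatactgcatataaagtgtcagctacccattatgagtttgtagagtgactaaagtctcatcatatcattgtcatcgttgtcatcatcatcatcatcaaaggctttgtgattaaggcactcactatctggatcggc
The windows of SIGLEC6 and TYROBP hold 2 matches, that of CORO1A 1 and those of KIT and HEMGN none. Of the windows not printed, DOCK2 held 1, and CD53, PTPRC and RHAG none.

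A promoter was found for 113 of the symbols called higher against the other P95H clones and for 50 of those called lower. GAGGAA on either strand was in 38 of the 113 (33.6%) and 10 of the 50 (20%), against 23.4% of 27305 promoters of the same length. AGATAA or its reverse TTATCT, letters bound by GATA factors, was in 9 of the 113 (7.96%) and 3 of the 50 (6%), against 9.37% of all. Neither motif contains the other. Other letters bound by GATA factors, such as TGATAA, were not searched for, and the HEMGN window printed above holds its reverse, TTATCA. The AGATAA counts therefore do not show which promoters lack a GATA site. These are matches of letters in one window and show no binding.

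White cell genes that are shared across lineages were higher in P22 as well, with clear exceptions. Of 56 such signalling and cytoskeletal genes 47 passed the filter, with a median log2 difference of 0.95 from the other P95H clones and 1.11 from the WT clones. Against the WT clones 7 were called higher (1.31% of all genes were) and 2 lower (PTPRC and SAMSN1, with 0.528% of all genes lower). The parental line moved with P22 here: the median difference of these genes from the mean of the WT clones was 1.23 in P22 and 1.02 in the parental line, against -0.27 to 0.14 in the other 7 libraries. A gene that passes the filter only through P22 or the parental line has to be higher there. These counts and medians therefore describe the tested genes and not the list.

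LAPTM5, a lysosomal protein of blood cells, was at 122 CPM in P22, 59.4 CPM in the parental line and 11.4 to 29.6 CPM in the other 7. CORO1A, the actin regulator coronin 1A, was at 31.6 CPM in P22, 10.7 CPM in the parental line and 1.71 to 6.01 CPM in the rest. SELPLG, the selectin ligand PSGL-1, was at 21.6 CPM, with 5.47 CPM in the parental line and 0.71 to 5.01 CPM elsewhere. Its log2 difference from the WT clones was 4.24 (SE 0.49, edgeR adjusted p = 0.00978) and passed without any single clone, whereas the calls of LAPTM5 (3.11, SE 0.45) and CORO1A (3.05, SE 0.52) were lost without W19 or W42, that of LAPTM5 also without W36 and that of CORO1A without P9 (adjusted p of 0.0797 to 0.115, in a range over all alternatives of 7.93e-11 to 0.121). CD48, the SLAM family receptor, had 14 counts in P22, 9 in the parental line and 0 in the other 7. SAMSN1, an adaptor that restrains B cell signalling, went the other way, at 11.7 CPM in P22 and 31.2 to 106 CPM elsewhere (log2 -3.00 from the WT clones, SE 0.21, edgeR adjusted p = 0.00105, not passed with W33 counted as a WT clone).

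**Figure D4:**
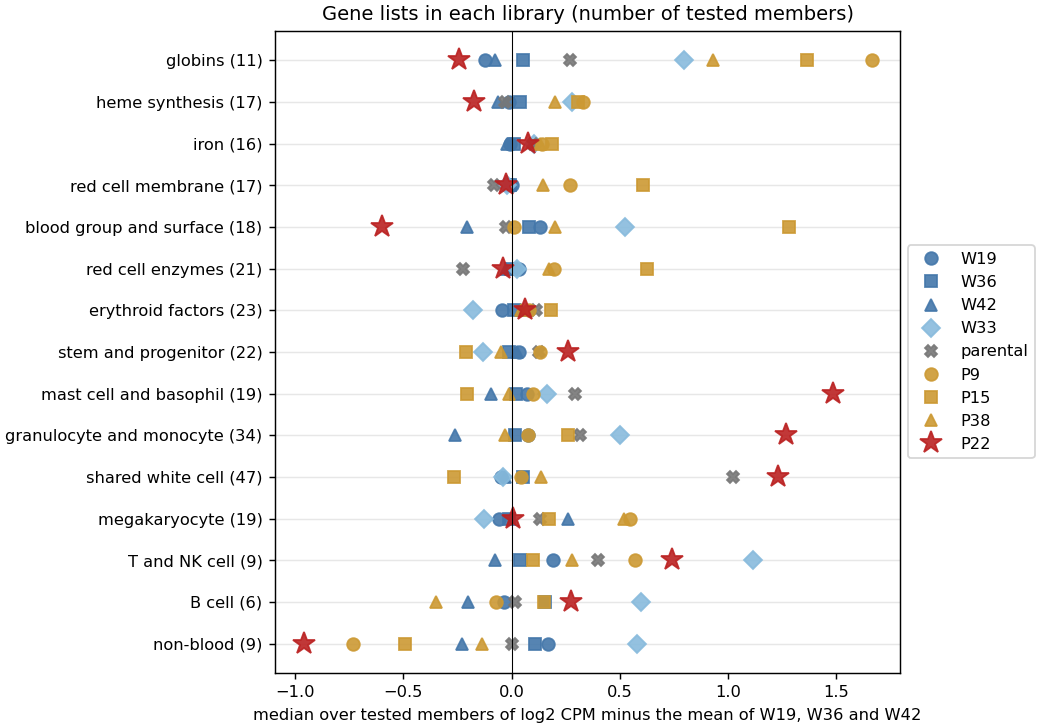
For 15 gene lists, the median over the tested members of log2 CPM minus the mean of W19, W36 and W42 is shown for each library, with the number of tested members in brackets. P22 (red star) stands right of the other libraries for mast cell and granulocyte lists, next to the parental line (grey cross) for shared white cell genes, and within or near the WT clones for most red cell lists, where P9, P15 and P38 (ochre) lie to the right.

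Of the other lineages, only the megakaryocyte list held called genes. Against the WT clones 2 of its genes were called higher (1.31% of all genes were) and none lower (0.528%). Against the other P95H clones 2 were called higher (0.851%) and 1 lower (0.391%). LTBP1, the one called lower, was at 20.8 CPM in P22, 46.6 to 73.1 CPM in the other P95H clones and 33.1 to 40.7 CPM in the WT clones. Its call was lost without W19, W36, W42, P9 or P38. Of 19 megakaryocyte genes tested, ITGA2B, the platelet integrin CD41, was at 45.8 CPM in P22, 24.2 CPM in the parental line and 8.73 to 20.7 CPM elsewhere (log2 2.27 from the WT clones, SE 0.25, edgeR adjusted p = 0.00567, kept without any single clone). PLEK, pleckstrin, was at 3.09 CPM in P22 and 0.806 CPM in the parental line against 0.156 CPM or less, and its call was lost without W36 or W42 (adjusted p of 0.0606 to 0.0896, in a range over all alternatives of 0.000271 to 0.0896). PF4 and GP1BB had 0 counts in all libraries and GP9 2 counts in P22, and the list's median differed from the WT clones by -0.04. No gene passed in either comparison among the 9 T and NK cell, 6 B cell and 9 non-blood genes tested. The defining T and B cell genes CD3E and MS4A1 were at 0.667 and 0 CPM in P22, within the ranges of the other libraries.

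Cell cycle and signalling genes differed in single members. MCM3, a subunit of the replicative helicase, was at 805 CPM in P22, 441 to 471 CPM in the other P95H clones and 456 to 485 CPM in the WT clones, with 558 CPM in the parental line and 619 CPM in W33. P22 was above all 8 (log2 0.77 from the WT clones, SE 0.11, edgeR adjusted p = 0.016), but the call was lost without W19, W36 or W42 (adjusted p of 0.0692 to 0.08, in a range over all alternatives of 4.72e-08 to 0.269). The 19 S phase genes tested had a median of 0.07 and the 20 G2/M genes one of -0.24 from the WT clones. CCND2, cyclin D2, was at 34.5 CPM in P22, 75.6 to 114 CPM in the other P95H clones and 127 to 135 CPM in the WT clones (log2 -1.94, SE 0.23, edgeR adjusted p = 0.00798, kept without any single clone). EGR1 and ETV5, which respond to the MAP kinase pathway downstream of BCR-ABL, were lower against the WT clones, at 31.1 and 3.91 CPM. The parental line had less EGR1 (20.2 CPM) than P22, and the calls were lost without W19 or W42, that of ETV5 also without W36 and that of EGR1 without P9, P15 or P38 (adjusted p of 0.0539 to 0.11, in a range over all alternatives of 6.03e-09 to 0.118). ID1, of the same list, was called higher, at 53.7 CPM in P22, 31.1 to 32.5 CPM in the WT clones and 53.4 CPM in W33. That call was lost without W19, W36, W42 or P9. DUSP4, DUSP5 and DUSP6 had 27, 202 and 14 counts in P22, against 9 to 21, 83 to 86 and 2 to 4 in the WT clones, and were not called. Of the 34 genes of that list, 13 were above the WT clones and 21 below, with a median of -0.05. Among them 1 was called higher (1.31% of all genes were) and 3 lower (0.528%).

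Most of the largest differences fell outside the blood cell lists. Of the protein-coding genes, 103 higher and 47 lower met the conditions for naming (called against the other P95H clones, at least 5 CPM in the higher group, outside all 8 libraries), and the 12 largest in each direction were taken. The higher ones were NRP1, ACPP, CNRIP1, AURKC, XAF1, CYP17A1, GRPR, TEX19, SAMD5, KIT, ZNF257 and CREB5. For most of them the reference clones had a handful of reads, so that the size of the fitted difference depends on the prior count, and levels say more.

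TEX19, a germ cell gene, was at 242 CPM in P22. W33 had 50.2 CPM, the parental line 6.16, P9, P15 and P38 4.01, 8.57 and 3.69, and the WT clones 2.12, 1.23 and 2.39 CPM. The difference from the WT clones was 6.98 (SE 0.48, edgeR adjusted p = 0.00196), and it did not pass with W33 counted as a WT clone. AURKC, the meiotic Aurora kinase, was at 29.7 CPM in P22 and at 0.0365 to 1.45 CPM in the 8 others (8.43, SE 0.37, edgeR adjusted p = 0.000124). ACPP, the prostatic acid phosphatase, was at 25.1 CPM against 0.067 to 0.969 CPM. NRP1, the neuropilin 1 receptor, was at 13.6 CPM, with 2.02 CPM in the parental line and 0 to 0.402 CPM in the other 7. CYP17A1, a steroid hydroxylase, was at 8.73 CPM against 0.067 to 0.194 CPM. CNRIP1, XAF1 and GRPR, a cannabinoid receptor partner, an interferon-induced gene and the bombesin receptor, were at 5.73, 5.33 and 5.06 CPM, with 0.979, 0.662 and 0.922 CPM in the parental line and at most 0.229 CPM in the other 7. SAMD5, CREB5, a CREB family factor, and ZNF257, a zinc finger gene, were at 7.76, 7 and 5.67 CPM, with 2.02, 1.47 and 2.48 CPM in the parental line. All these genes passed against the WT clones. The ZNF257 call was lost without W19, W36, W42 or P9 (adjusted p of 0.0694 to 0.148, in a range over all alternatives of 0.00304 to 0.148). The call was lost without W19, W42, P9, P15 or P38 for ACPP, without W36 or W42 for GRPR and without W36 for NRP1 (adjusted p of 0.0555 to 0.0807, 0.071 to 0.08 and 0.0716, in ranges over all alternatives of 0.00195 to 0.15, 3.07e-05 to 0.08 and 3.49e-10 to 0.0716).

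The lower genes included PTPRC, SOX5, SPECC1, TFPI, EMX1, IMPA2, RAB6B, SELENOP, CCDC152, PTH2R and SAMSN1. SOX5, a SOX factor, was at 0.152 CPM against 3.70 to 9.44 CPM (log2 -5.70, SE 0.47, edgeR adjusted p = 0.00156). TFPI, the inhibitor of tissue factor, was at 17.1 CPM in P22, but the others ranged from 55.3 (W33) to 582 CPM (P38), and its call was lost without W19, W36, W42 or P15 (adjusted p of 0.0727 to 0.0937, in a range over all alternatives of 5.99e-23 to 0.157). SELENOP, a selenium carrier, was at 6.03 CPM against 17.5 to 45.7 CPM, a call lost without W19, W36 or P9 (adjusted p of 0.0566 to 0.0871, in a range over all alternatives of 1.15e-08 to 0.0871). CCDC152 shares 1452 exon bases with SELENOP on the other strand, so the lower level of the one cannot be told apart from that of the other. EMX1, a homeobox factor, was at 0.455 CPM against 4.49 to 13.4 CPM, and IMPA2, an inositol monophosphatase, at 1.36 CPM against 8.64 to 19.8 CPM. PTH2R, a parathyroid hormone receptor, was at 1.67 CPM against 5.19 to 13.8 CPM, and RAB6B, a vesicle trafficking GTPase, at 4.15 CPM against 7.37 to 42.3 CPM. These 4 also passed against the WT clones. The calls of IMPA2 and PTH2R were lost without W36 or W42, and that of RAB6B without W19, W36, W42 or P9 (adjusted p of 0.0511 to 0.0896, in a range over all alternatives of 1.38e-12 to 0.0896).

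Genes that set P22 apart also set the parental line apart from the WT clones, by less. Of the 174 higher genes, the parental line was above all of W19, W36 and W42 at 132 (75.9%), against 33.3% of all genes tested, and its median log2 difference from their mean was 0.54, compared with 2.83 in P22. Of the 80 lower genes it was below all 3 WT clones at 55 (68.8%), against 32% of all genes, with a median of -0.42 compared with -1.98 in P22. Among genes with at least 1 CPM in the WT clones the counts were 71 of 94 (75.5%, against 34.4%) and 51 of 73 (69.9%, against 33.6%). W33 was above the WT clones at 109 of the 174 (62.6%, against 37.3%) and below them at 47 of the 80 (58.8%, against 41.9%). The parental library shares the WT clones as reference with P22, and its depth was the highest of the 9. Over 15625 genes averaging 1 CPM or more, log2 CPM of P22 correlated most with the parental line (r = 0.969 across genes, which are not independent) and least with W33 (r = 0.934). P9, P15 and P38 gave 0.953, 0.944 and 0.956.

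**Figure D5:**
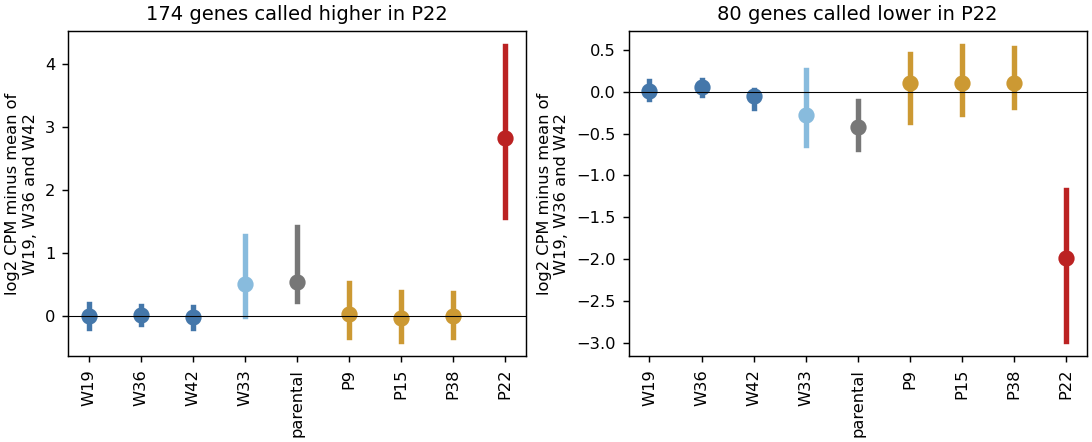
For the genes called higher (left, 174) and lower (right, 80) in P22 against P9, P15 and P38, points give the median and bars the quartiles, over genes, of log2 CPM minus the mean of W19, W36 and W42 in each library. The genes were chosen by the level of P22, at 2.83 and -1.98, and the parental line follows at 0.54 and -0.42.

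Along the genome, medians by chromosome, over genes of at least 5 CPM, lay between -0.04 and 0.08 of the median of the libraries other than P22 and W33, with chromosome 20 the highest. Of the runs of 50 neighbouring genes, 1 had a median beyond 0.2, the first on chromosome 1, from WASH7P to RER1 (0.20). Against P9, P15 and P38 alone, chromosomes 11 (0.10) and 1 (0.08) had the highest medians. On chromosome 11 the run from KCNQ1OT1 to ZNF143, which spans the beta globin cluster, was at -0.35 and the next at -0.26, while runs further along reached 0.26 (SLC29A2 to LTO1). Against the WT clones these 3 runs were at -0.06, -0.07 and 0.12. P22 was the highest library by at least 2-fold for 116 genes and the lowest for 136, P15 for 85 and 39, W33 for 55 and 208, and each of the other 6 for at most 8 and 37. Set against the other clones of its genotype, P15 gave 7 genes, P9 1 and P38 none, with P22 among their references.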

How the data were processed

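RNA was measured in 9 K562 libraries: polyadenylated RNA, TruSeq RNA kit (which does not mark strand) and HiSeq2000, per the labels' protocols. The deposited values are raw counts per Ensembl gene, made by the authors with bcl2fastq, TopHat2 2.0.4 and HTSeq 0.6.1p1 on GRCh37, per the submitters' processing notes, with Ensembl release 75 per the file labels. The counting strand setting is not given in the sources used here. Of each file, 5 summary rows, such as reads in no gene (47.5 to 49.1%), were left out. Symbols came from GENCODE 29 by gene ID (52526 of 63677 IDs), so no GRCh37 coordinates are given.

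Genes kept by filterByExpr were fitted with edgeR 4.0.16 in R 4.3.3 (TMM, robust quasi-likelihood F test, Benjamini-Hochberg, threshold 0.05) over 8 libraries in 4 groups: P22; P9, P15 and P38; W19, W36 and W42; parental. Because 2 groups hold 1 library, the filter kept genes expressed in 1 library. W33 was left out. The biological coefficient of variation was 20.8%. Log2 CPM used a prior count of 2. Standard errors were derived from the F statistic. P-values set a difference against the spread between replicate clones, which may be partly technical. The variation of P22 itself was not measured. The fit was tested on simulated counts.

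Genes were named by rule: SRSF2; 6 given markers; the 12 largest protein-coding differences in each direction; and up to 5 called members by size in each of 21 lists (530 of 531 entries matched). Other list members are named with values only, and some named genes are not reported here. The clone, the lists and the rule were chosen with earlier results of these data known. Alternatives changed the scaling (upper quartile or RLE), the gene filter (none, or 1 CPM reached in 4 libraries), the tool (limma-voom with limma 3.58.1, DESeq2 1.42.0, or edgeR's glmTreat with a minimum fold of 1.2) and the libraries: W33 added as a WT clone, parental dropped, P95H clones alone, or any 1 clone dropped. A further fit dropped chromosomes 1 and 11.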

Additional observations from a re-analysis of the deposited data

Results flagged for a closer look

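For each of the 60 named genes the 4 P95H clones and the 4 clones with wild-type SRSF2 (W33 included) were searched for a clone whose gap to the next, on the log2 scale and divided by the range of the group, exceeded Dixon's critical value for 4 samples. Chance passes this value in about 1 group in 20. P22 was picked for its distance from the other P95H clones, and most of the genes for their difference in it, so its passes describe that choice. Over 15625 genes averaging 1 CPM or more, P22 passed as highest for 125 and as lowest for 142. P15 passed for 135 and 185, P9 for 78 and 159 and P38 for 55 and 60, so by this count P22 did not stand out.

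P22 was the highest of the P95H clones for AURKC (0.9752 of the range), SIGLEC6 (0.9397), CNRIP1 (0.9075), MCM3 (0.8919), CYP17A1 (0.8789), ACPP (0.8783), E2F1 (0.8741), TYROBP (0.8518), LYL1 (0.8485), SPI1 (0.8418) and XAF1 (0.8387). It was the lowest for SAMSN1 (0.9594), PTPRC (0.9558), HBD (0.9426), CCDC152 (0.9208), SPECC1 (0.9176), SELENOP (0.9107), SOX5 (0.8841), EMX1 (0.8781) and RHAG (0.8544). KIT, CD53, DOCK2 and HEMGN did not exceed the critical value, with gaps of 0.612 (DOCK2) to 0.806 (HEMGN) of the range.

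Among the clones with wild-type SRSF2, W33 was the highest for ID1 (0.9167), LYL1 (0.8871) and DOCK2 (0.8782) and the lowest for SRSF2 (0.888), TFPI (0.8469), RHAG (0.8463) and PTH2R (0.8323). W19 was the highest for ENPP3 (1, the other 3 clones having no count) and GRPR (0.8296), and W36 for ACPP (0.8359). ENPP3 and GRPR in W19 rest on a few counts.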

How the results depend on the processing

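The number of genes called moved with the filter, the tool and the libraries. For P22 against P9, P15 and P38 (254 genes) the count was 620 with no filter, 140 with 1 CPM required in 4 libraries, 721 with DESeq2 (349 higher, 372 lower), 88 with W33 counted as a WT clone and 101 with P95H clones alone; fits without 1 clone gave 143 (without W42) to 443 (without P15). For P22 against the WT clones (375 genes) it was 739, 894 with DESeq2 (490 higher, 404 lower), 1129 with limma-voom and 164 with W33; fits without 1 clone gave 117 to 906. For P9, P15 and P38 against the WT clones (5 genes) it was 147 with no filter, 407 with DESeq2, 30 with limma-voom, 0 with W33 and 3 without chromosomes 1 and 11; fits without 1 clone gave 0 to 100. The causes were not tested. Of the 254 and 375 genes, DESeq2 shared 235 and 342. The other alternatives kept each count within 1.5 times. No named gene reversed. Against the WT clones, 60 named genes in 6 fits without 1 clone kept their side of the threshold in 266 of 360 values, lost it in 86 and gained it in 8. The globin median from the WT clones was 0.15 without chromosomes 1 and 11 and -0.78 with W33. No paired analysis was possible because the clone numbers are not shared between groups.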

Other observations

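Some genes with large differences in P22 passed in neither comparison and were chosen after their values were seen. DHRS2, a short-chain dehydrogenase induced by histone deacetylase inhibitors, was at 760.6 CPM in P22, at 136 CPM in W33 and lower in the other 7 libraries. MAGEB2, a cancer-testis gene, had no read in P22 and 0.425 to 46 CPM elsewhere. CA2, a carbonic anhydrase of red cells, was at 0.242 CPM in P22 and at 0.882 to 29.3 CPM elsewhere.

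Other genes called in both comparisons, which share P22, were also chosen after their values were seen. KDM1A, the histone demethylase LSD1, was at 622 CPM in P22 against 253 to 343 CPM in the 8 other libraries (log2 1.18 from the WT clones, edgeR adjusted p = 0.00518). APOBEC3G, a cytidine deaminase, was at 73.3 CPM against 2.01 to 6.08 CPM (log2 4.84, edgeR adjusted p = 0.000124). GM2A, a lysosomal lipid carrier, was at 226 CPM against 38.8 to 68.8 CPM. The chains of the IL-18 receptor, IL18R1 and IL18RAP, were at 39.4 and 18.5 CPM. Of 11 SIGLEC genes tested, 4 were called higher in each comparison. Of all genes, 0.851% were called higher against the other P95H clones and 1.31% against the WT clones.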
